A study of Homo sapiens with 2 samples.

Results

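HMGA1 peaks on the gene-rich chromosomes 11, 16, 17, 19, 20 and 22 numbered 314 of the 2352 listed peaks, and they were taken by chromosome name alone, without use of any measured value. The comparison set was the 1906 peaks on the other 16 autosomes, and the 132 peaks on X and Y were in neither set. Sites of HMGA1 came from ChIP-seq, the sequencing of DNA pulled down with an antibody to the protein, in IMR90, a line of human diploid lung fibroblasts. One group was infected with a RAS retrovirus, which drives the cells into senescence, and the other with an empty vector and kept growing. Both groups were cultured at 2% oxygen at population doublings 25 to 35, infected on days 1 and 2, selected with 1 µg/ml puromycin from day 3 and harvested on day 12. Each group was 1 library, with a depth near 35400000 tags for RAS and 34100000 for vector, so values carry no error between cultures and no test between conditions was made. A RAS-infected population under drug selection is a mixture of cells, and the labels give no share of cells that had arrested.

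HMGA1 is an architectural chromatin protein whose AT hooks insert into the minor groove of AT-rich DNA. In senescent fibroblasts HMGA proteins are known as parts of senescence-associated heterochromatin foci, the dense bodies into which chromosomes condense. Gene-rich chromosomes are known to be richer in G and C and to lie nearer the middle of the nucleus than gene-poor ones. The peaks were therefore looked at for whether the tags, their surroundings and their spacing on such chromosomes differ from those elsewhere. Base composition was not analysed here, and no peak was assigned to a gene, since no sequence or annotation of hg19, the build of the list, was used.

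The label of the 6 chromosomes held in a gene table of another build. The span of a chromosome is the stretch between its outermost listed peaks, both included. Protein-coding genes per Mb of span were 9.67 on chromosome 20, 9.74 on chromosome 11, 10.3 on chromosome 16, 13.8 on chromosome 22, 15.1 on chromosome 17 and 30.9 on chromosome 19. On the other 16 autosomes they ran from 3.55 on chromosome 18 to 8.37 on chromosome 1, so the sets did not overlap. The spans of chromosomes 19 and 22 begin only at 11868970 and 17164553, which raises their quotients. Among the other autosomes, those of chromosomes 13, 14, 15 and 21 begin at 21577887, 20446421, 20119588 and 9558133, which raises theirs too.

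As a whole, the 314 peaks looked much like those of the other autosomes. The RAS library had a median of 19 tags per peak in both sets, with quartiles of 17 and 21 on gene-rich chromosomes and 17 and 22 elsewhere. The vector library, called Control in the list, had a median of 4 tags in both. Summed over peaks, gene-rich chromosomes held 6072 RAS tags and 1108 vector tags, which at equal depth is 5.28 to 1 (exact 95% interval for counting error 4.95 to 5.63). The other autosomes held 37381 and 6900, or 5.22 to 1 (5.09 to 5.36). Both ratios lie above 4 by construction, because the list holds only peaks with a fold over vector of 4.02 or more. The intervals in this report cover counting error in these 2 libraries or the spread over listed peaks, and peaks of 1 library are not replicates.

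A fold over vector of at least 8 was reached by 41 of the 314 peaks, or 13.1% (exact 95% interval 9.54% to 17.3%). The share over the whole list was 12.2%, and over the other autosomes it was 12.0%. A fold of at least 5 was reached by 164 peaks, 52.2%, where the whole list had 51.1%. The vector library had 0 or 1 tag at 11 peaks, 3.50% (1.76% to 6.18%), against 4.34% of the whole list. All of these shares on gene-rich chromosomes held the share of the whole list within their intervals.

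The 6 chromosomes differed among themselves in the number of RAS tags per peak, and chromosome 11 stood on the opposite side from the other five. Chromosome 11, which supplied 129 of the 314 peaks, had a mean of 20.3 ± 0.33 RAS tags per peak (SE over peaks, n = 129). That was the second highest mean of the 22 autosomes, below chromosome 4 at 20.4 ± 0.30 (n = 156). Chromosome 22 had the lowest, 18.2 ± 0.63 (n = 18). Chromosome 17 followed at 18.6 ± 0.38 (n = 44), chromosome 20 at 18.7 ± 0.41 (n = 54), chromosome 16 at 18.7 ± 0.56 (n = 47) and chromosome 19 at 18.9 ± 0.51 (n = 22). Those 5 means were the lowest of all 22 autosomes. The next, chromosome 15, lay 0.091 tags above chromosome 19 with an SE of 0.34 (n = 78), so neighbours in this order do not differ beyond their spread.

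**Figure D1:**
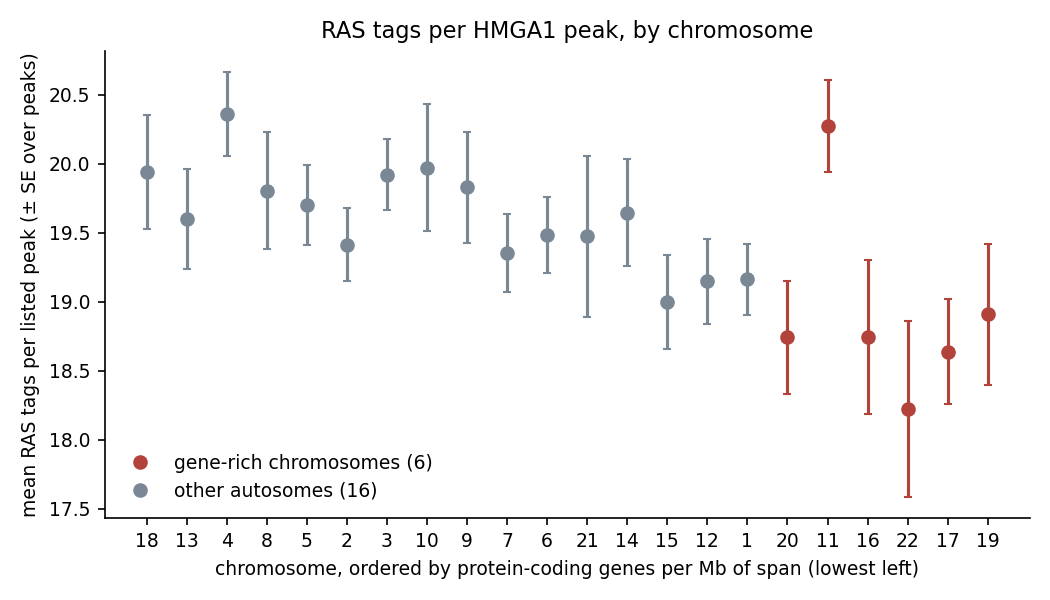
Mean RAS tags per listed peak (points) with the SE over peaks (bars) on each of the 22 autosomes, ordered from left to right by protein-coding genes per Mb of span; the axis does not start at 0. Chromosomes 16, 17, 19, 20 and 22 sit between 18.2 and 18.9 at the right, and chromosome 11, also gene-rich, sits at 20.3.

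The 5 chromosomes 16, 17, 19, 20 and 22 held 185 peaks with a mean of 18.7 RAS tags, against 19.6 on the other autosomes. Setting chromosome 11 apart was a choice made after its values were seen, so the difference is given as a description, with no test. The 4-fold limits of the list, over vector and over the RAS tags around a peak, also set how many RAS tags a peak needed to be listed. The level around a peak was lower on these 5 as well (median 3.62 against 3.84, described below). Whether that accounts for the fewer RAS tags was not tested. The 5 chromosomes had a smaller share of peaks with 21 or more tags and a larger share with fewer. At least 24 RAS tags were found at 13 of the 185 peaks, or 7.03%, at 271 of the 1906 peaks of the other autosomes, 14.2%, and at 25 of the 129 peaks of chromosome 11, 19.4%. With 21 to 23 RAS tags there were 29 of the 185 peaks, 15.7%, against 21.5% on the other autosomes, and with 19 to 20 tags 39 peaks, 21.1%, against 15.9%. At the low end, 13 to 16 RAS tags were found at 43 of the 185 peaks, 23.2%, at 349 peaks of the other autosomes, 18.3%, and at 17 peaks of chromosome 11, 13.2%. Among peaks with a fold of at least 8 the order of the means was the opposite, with the 26 such peaks of the 5 chromosomes 0.11 tags above the 229 of the other autosomes.

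The list's strongest gene-rich peaks by RAS tags were on chromosomes 11 and 16. On chromosome 11, the peak at chr11:10215246-10215612 had 36 tags in the RAS library and 6 in the vector library, which at equal depth is a ratio of 5.78 (2.41 to 16.8, the exact 95% interval for counting error). On chromosome 16, the peak at chr16:8153439-8153805 had 34 and 8, a ratio of 4.09 (1.86 to 10.2). It lay near the start of the span, at 4.90% of its length, and the nearest listed peak was 2023 kb away. On the other 4 chromosomes the most RAS tags at any peak were 24 or 25. The peak at chr20:54271100-54271466 had 25 and 4, a ratio of 6.02 (2.08 to 23.8). The leading peaks of chromosome 17 (chr17:52280808-52281174), chromosome 19 (chr19:37128608-37128974) and chromosome 22 (chr22:31919022-31919388) each had 24 and 5, a ratio of 4.62 (1.73 to 15.5). Neither the choice of these peaks by their tags nor the 4-fold limit of the list enters the intervals.

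The peaks with the highest fold on each chromosome were other sites, with 0 to 2 vector tags. Chromosome 22 held the only gene-rich peak with 0 vector tags, chr22:40140492-40140858, with 20 RAS tags. At equal depth this is 6.42 times a floor of 3 vector tags, and with counting error in the RAS tags included the exact lower 95% limit was 4.76. Chromosome 19 had 23 and 1 at chr19:22720221-22720587, a ratio of 22.2 (3.60 to 913). Chromosomes 11 and 20 had 18 and 1 at chr11:92664448-92664814 and at chr20:22006116-22006482, a ratio of 17.3 (2.74 to 723). Chromosome 17 had 15 and 1 at chr17:39501712-39502078, a ratio of 14.5 (2.22 to 608). On chromosome 16 the highest was 23 and 2 at chr16:78609798-78610164, a ratio of 11.1 (2.74 to 97.0). Wherever the vector count was 1 the upper limit was 608 or more, so the order of these 6 peaks is not resolved at this depth.

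Vector tags, read in the growing cells, were 3.53 ± 0.065 per peak on gene-rich chromosomes (mean ± SE over 314 peaks) and 3.62 ± 0.028 on the other autosomes (1906 peaks). The most common counts on gene-rich chromosomes were 3 tags, at 100 peaks, and 4 tags, at 99 peaks, and 1 peak had 8. With 2 tags there were 44 of the 314 peaks and 208 of the 1906 on the other autosomes. The 4-fold limit lets a peak with fewer RAS tags keep fewer vector tags, so the count was also compared at equal RAS tags. With the peaks sorted into 5 classes of RAS tags and both sets given the same mix of classes, mean vector tags were 3.58 on gene-rich chromosomes and 3.61 on the others. The chromosomes ranged from 3.36 (chromosome 19) to 3.65 (chromosome 16) on this scale, inside the range of the other autosomes, 3.35 to 3.71. On chromosome 19 the class with the most RAS tags, 24 to 38, held only 1 peak. At 171 of the 314 peaks, 54.5%, the vector library had the most tags that a 4-fold limit allows, against 54.4% of peaks on the other autosomes.

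The local background is the level of RAS tags around a peak, taken as RAS tags at the vector depth divided by the authors' fold over the local surroundings, and its unit is tags per peak width. Its median was 3.77 on gene-rich chromosomes (quartiles 3.27 and 4.35; order-statistic 95% interval of the median 3.67 to 3.85) and 3.84 on the other autosomes (quartiles 3.38 and 4.46; interval 3.80 to 3.89). The 2 intervals overlapped. With chromosome 11 set apart, a choice made after its values were seen, the other 5 had a median of 3.62 (3.44 to 3.77). That interval lay below the one of the other autosomes, while chromosome 11 had 3.92 (3.79 to 4.20). By chromosome, the median was lowest on chromosome 17, at 3.55, followed by 3.62 on chromosome 16, 3.66 on chromosome 20, 3.71 on chromosome 22, 3.77 on chromosome 19 and 3.92 on chromosome 11. The other autosomes ran from 3.56 (chromosome 21) to 4.06 (chromosome 4), so only chromosome 17 fell outside their range.

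Because every listed peak had passed a 4-fold limit over its surroundings, its local background cannot exceed its scaled RAS tags divided by 4, and the 2 values rise together. Within classes of RAS tags the gene-rich median was below that of the other autosomes in all 5 classes, and the intervals overlapped in each of them. In peaks with 13 to 16 RAS tags the medians were 3.25 and 3.33, with 17 to 18 tags 3.61 and 3.67, and with 19 to 20 tags 4.06 and 4.09, where the means had the opposite order, 3.99 and 3.97. The gap was widest in the stronger peaks. With 21 to 23 tags the medians were 4.20 (interval 3.91 to 4.81, n = 63) and 4.50 (4.38 to 4.59, n = 410), and with 24 to 38 tags they were 4.77 (4.43 to 5.32, n = 38) and 5.20 (5.05 to 5.34, n = 271). This order held for the 6 chromosomes pooled, but not throughout for chromosome 11 and the other 5 taken apart. The median of chromosome 11 was above that of the other autosomes with 13 to 16 tags (3.38) and 17 to 18 tags (3.70). It was also above with 21 to 23 tags (4.78). The median of the other 5 was above with 19 to 20 tags (4.21). Each was below in its remaining classes. Weighted to the same mix of classes, the mean local background was 3.85 on gene-rich chromosomes and 3.94 on the others. All 6 chromosomes then lay between 3.68 (chromosome 17) and 3.92 (chromosome 11). Of the 16 other autosomes, 10 lay above chromosome 11 and 1, chromosome 21 at 3.46, below chromosome 17. In the class of 24 to 38 tags this weighting rests on 2 peaks on chromosome 17 and 1 each on chromosomes 19, 21 and 22. Among peaks with a fold of at least 8 the gene-rich median was 0.068 tags above that of the other autosomes.

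**Figure D2:**
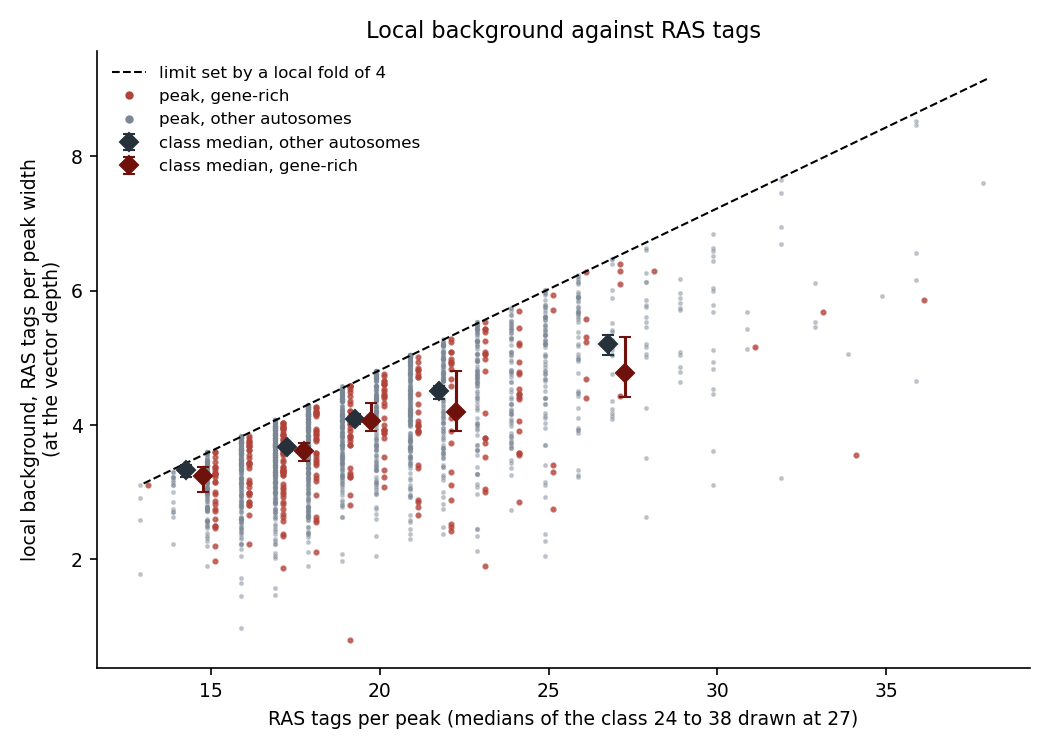
Local background (RAS tags per peak width at the vector depth) against RAS tags for each peak on gene-rich chromosomes (red) and on the other autosomes (grey), with the median of each class of RAS tags and its order-statistic 95% interval (diamonds and bars). The dashed line is the limit set by a local fold of 4, and the red diamonds lie below the grey ones in all 5 classes with overlapping bars.

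The lowest and the highest local background of the 314 peaks were neighbours. On chromosome 11, the peak at chr11:127646118-127646484 had 19 RAS tags and 2 vector tags over a background of 0.805. The peak at chr11:127594996-127595362, 51.1 kb before it, had 27 RAS tags and 6 vector tags over a background of 6.40. The next lowest were at chr11:23211349-23211715, with 17 RAS tags, 1 vector tag and a background of 1.87, and at chr17:62917248-62917614, with 23 RAS tags, 5 vector tags and a background of 1.91. Backgrounds of 1.98 at chr11:36481499-36481865 (15 RAS tags, 3 vector tags) and 2.12 at chr11:109056668-109057034 (18 and 3) completed the lowest 5. The other 4 of the highest 5 lay at chr11:96118042-96118408 (6.30), chr16:52378110-52378476 (6.29), chr11:90996011-90996377 (6.28) and chr16:34784947-34785313 (6.10), and each had 26 to 28 RAS tags. High background thus went with many RAS tags, as the limit requires, while low background was found at peaks with 15 to 23 tags.

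The focus ratio gives how large a part of the tags falls where a point source would leave them, on the matching side of the centre. It describes the shape of the pile and enters neither fold. Its median was 0.736 on gene-rich chromosomes (order-statistic 95% interval 0.724 to 0.750) and 0.731 on the other autosomes (0.727 to 0.735). The intervals overlapped, and the sign of the difference turned with the choice of peaks or of comparison chromosomes. By chromosome, the median ran from 0.711 on chromosome 17, the lowest of all autosomes, to 0.755 on chromosome 20, which only chromosome 21 exceeded, at 0.773. Among the weakest peaks, with 13 to 16 RAS tags, it was 0.750 on gene-rich chromosomes (0.720 to 0.789, n = 60) and 0.720 elsewhere (0.708 to 0.731, n = 349). The order held with 17 to 18 tags, at 0.741 and 0.727, was equal with 19 to 20 tags, at 0.733 in both, and was the opposite with 21 to 23 tags, at 0.722 and 0.733, and with 24 to 38 tags, at 0.736 and 0.744. The most focused peak was at chr16:25532388-25532754, with a focus ratio of 0.960, 19 RAS tags and 3 vector tags. It was followed by chr11:7261654-7262020 at 0.913 and chr16:15536107-15536473 at 0.900. The least focused were chr20:20060872-20061238 at 0.531, chr17:29356692-29357058 at 0.545 and chr17:8728697-8729063 at 0.556. These 6 peaks had 16 to 21 RAS tags, close to the median of the list.

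Fewer peaks per span were listed on gene-rich chromosomes as a set than on all other autosomes, but not on each of them. The 6 chromosomes held 0.732 peaks per Mb of span (exact 95% Poisson interval 0.653 to 0.818) and the other autosomes 0.832 (0.795 to 0.870). The ratio was 0.880 (0.778 to 0.992, exact 95% interval for counting error). These intervals treat peaks as independent and leave out the spread between chromosomes. That spread ran from 0.469 to 0.972 per Mb within the 6 and from 0.500 to 1.02 on the other autosomes. Against the 8 other autosomes of similar span, which held 0.800 per Mb (0.738 to 0.866), the difference was smaller and the intervals overlapped. Chromosome 20, at 0.972 per Mb (0.730 to 1.27), and chromosome 11, at 0.966 (0.806 to 1.15), came next to chromosome 6, the densest of the 22 autosomes at 1.02. Chromosome 22, at 0.552 (0.327 to 0.872), was as thin as chromosomes 16 and 17, at 0.566 and 0.569, and chromosome 19 had the lowest value, 0.469. Chromosome 20 was therefore like chromosome 11 in density and like the other four in RAS tags per peak. With a fold over the local surroundings of at least 5, the densities were 0.261 and 0.268 per Mb. Stretches outside the outermost listed peaks are left out of every span, so they do not lower these densities.

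**Figure D3:**
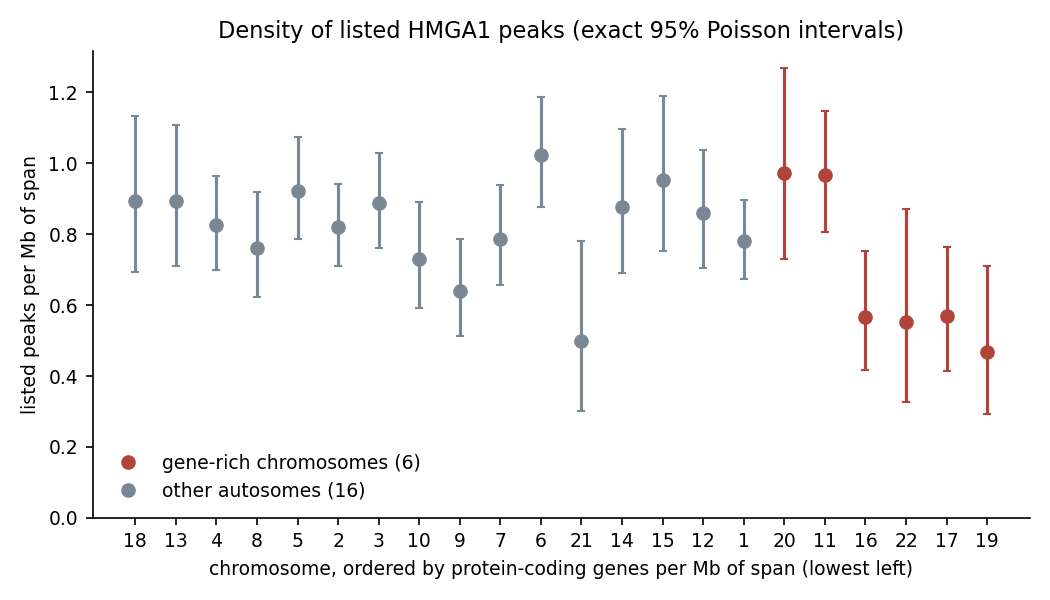
Listed peaks per Mb of span (points) with exact 95% Poisson intervals (bars) for each of the 22 autosomes, ordered from left to right by protein-coding genes per Mb of span. Among the gene-rich chromosomes, 20 and 11 sit near 0.97 per Mb and 16, 17, 19 and 22 between 0.469 and 0.569.

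The nearest listed peak lay at a median of 384 kb on gene-rich chromosomes (order-statistic 95% interval 331 to 494 kb) and 374 kb on the other autosomes (358 to 395 kb). Chromosome 11 had the shortest median of all autosomes, 273 kb, and chromosome 22 the second longest, 889 kb, below chromosome 21 at 1183 kb. Another peak lay within 100 kb of 56 of the 314 peaks, 17.8% (exact 95% interval 13.8% to 22.5%), against 17.2% on the other autosomes. Chromosome 20 had 15 such peaks of 54. Chromosomes 19 and 22 had 0 of 22 and 0 of 18, counts that allow shares of up to 15.4% and 18.5% (exact 95% limits). The closest pair was 1911 bp apart at chr20:46614612-46614978 and chr20:46616523-46616889, with 17 and 15 RAS tags and 3 vector tags each. Next came a pair 4977 bp apart on chromosome 16, which held the most focused peak and a second at chr16:25527411-25527777 with 18 RAS tags. The pairs starting at 5131840 and 5140257 on chromosome 20, at 8621187 and 8630703 on chromosome 11, and at 117825967 and 117836036 on chromosome 11 were 8417, 9516 and 10069 bp apart. The 10 peaks of these 5 pairs had 15 to 27 RAS tags and 2 to 6 vector tags.

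Along the spans, the share of gene-rich peaks near the ends of the span was within its counting interval of that on the other autosomes. Ends of a span are its outermost listed peaks, not the ends of the chromosome. On chromosome 19, for example, the span began only at 11868970. Position relative to the chromosome ends was not measured. The outer 20% of the span at both ends together held 138 of 314 peaks, 43.9% (38.4% to 49.6%), and 42.7% on the other autosomes. The first and last peak of each chromosome define the span and so fall in it. Without them the shares were 41.7% (126 of 302) and 41.7% (781 of 1874). The middle 20% of the span held 48 peaks, 15.3% (11.5% to 19.8%), against 16.7% on the other autosomes. From the first to the last 20% of the span, the median local background on gene-rich chromosomes was 3.73, 3.89, 3.72, 3.98 and 3.58, and on the other autosomes 3.81, 3.78, 3.92, 3.94 and 3.76.

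**Figure D4:**
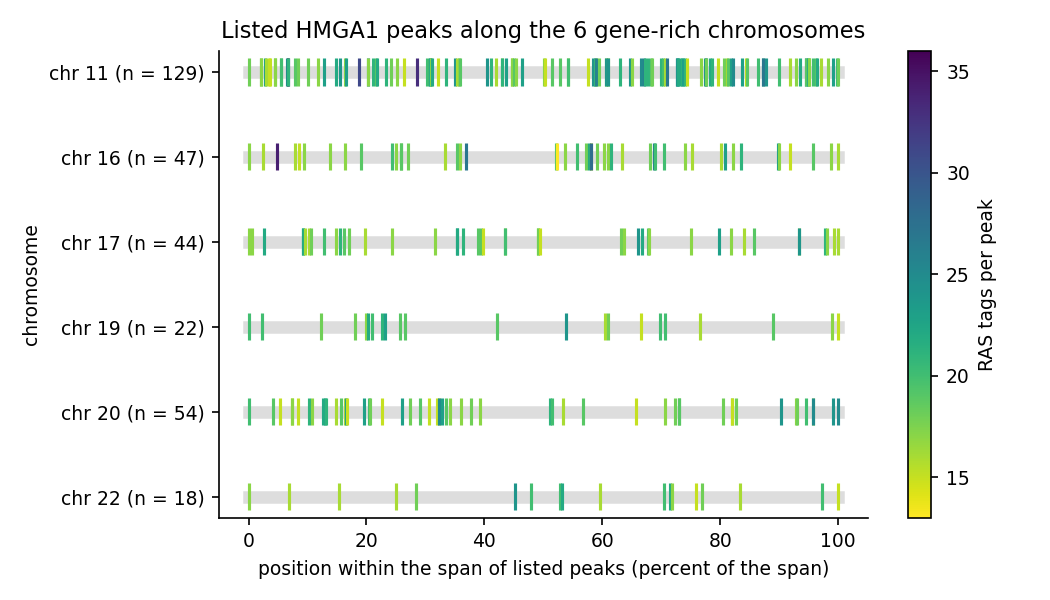
Each listed peak on the 6 gene-rich chromosomes (ticks), placed by its position within the span of that chromosome's listed peaks (percent of the span) and coloured by its RAS tags. As a percent of the span, chromosomes 16, 17, 19, 20 and 22 have wider stretches without a tick than chromosome 11. Spans differ in length, and in Mb the longest such stretch of chromosome 11, 5.92 Mb, exceeds that of chromosome 22, 5.47 Mb.

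Peaks were spread unevenly within single chromosomes. On chromosome 20, windows of 10 Mb from 0 and from 10 Mb held 13 and 16 of its 54 peaks, and the window from 30 to 40 Mb held 3. On chromosome 11 the window from 90 to 100 Mb held 16 peaks with a median local background of 4.94, and none of its 14 windows held fewer than 6. On chromosome 17 the window from 40 to 50 Mb held 0 peaks, within a stretch of 10.6 Mb from 39502078 to 50110777 that was the longest without a listed peak on that chromosome. The longest such stretch was 12.6 Mb on chromosome 16, from 34785313 to 47387309, and it began at one of the peaks with the highest local background. Those of chromosome 19 (24292346 to 31651843), chromosome 20 (22863182 to 29467768), chromosome 11 (49352839 to 55273342) and chromosome 22 (26447996 to 31919022) were 7.36, 6.60, 5.92 and 5.47 Mb long. Which of them hold centromeres or other unmapped sequence was not determined here. Chromosome 19 had no listed peak before 11868970, and chromosome 22 none before 17164553.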

How the data were processed

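The submitters' processing notes name Bowtie 0.12.9, HOMER and the build hg19; not given in the sources used here are HOMER's settings, the width of the local surroundings and any input library. No column names a library, and the table's name, RAS versus vector, is the only ground for taking total tags as RAS and control tags as vector. Per the file headers, the deposited values are a tag count scaled to 10000000 tags, RAS tags at the control depth and control tags (signal), a focus ratio (fraction), a findPeaks score, folds over control and local surroundings (ratio) and their p-values. All folds are the peak's own values from the authors' caller. The authors listed peaks with p-values of at most 7.14e-05 over control.

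Whole RAS tags were recovered from the step of 0.282 (99.7% of values whole within 0.1 tag). Exact binomial and Poisson intervals and order-statistic intervals of medians are at 95%. Amplified reads that lack molecular identifiers may repeat a molecule, so intervals cover counting error only. The value 0.5 listed for vector tags was read as 0. Gene counts came from RefSeq, GRCh38.p14, used for counts per chromosome only. Classes of RAS tags were 13 to 16, 17 to 18, 19 to 20, 21 to 23 and 24 to 38. Peaks were named by a fixed rule (most RAS tags and highest fold per chromosome; extremes of local background and focus ratio; closest pairs; longest stretches without a peak). The members, rule and alternatives were chosen with earlier results of these data known. Scripts used Python 3.11.15, numpy 2.4.6, pandas 2.3.3, scipy 1.17.1 and matplotlib 3.10.9 and were tested on simulated data.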

Additional observations from a re-analysis of the deposited data

How the results depend on the processing

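No paired analysis was possible because there was 1 library a group, which also leaves no replicate to drop. Depth limits each peak, with a median of 19 RAS tags. Stricter lists change most values by their construction. They keep fewer peaks, which alters counts, density and spacing, and they choose peaks by tags, folds or p-values tied to the other values. For all other changes the cause was not tested. A fold over vector of at least 8 left 41 gene-rich peaks, with 18.8 mean RAS tags, 1.73 mean vector tags, a nearest peak at 3504 kb, 0.0956 peaks per Mb and 36.6% in the outer 20% at each end. A p-value over vector of at most 1e-10 left 50 peaks, with mean and median RAS tags of 21.5 and 21, 2.46 vector tags, a local background of 4.09, a nearest peak at 2558 kb, 0.117 peaks per Mb and 62.0% with a fold of at least 8. With the same limit, the other autosomes had 55.4% with a fold of at least 8. A local fold of at least 5 left 112 peaks, with RAS tags of 20.1 (mean) and 19.5 (median), 3.77 vector tags, a background of 3.08, a nearest peak at 1288 kb, 0.261 per Mb and 51.8% in the outer 20% at each end. The other autosomes then had 42.4% in the outer 20% at each end. At least 20 RAS tags left 128 peaks, with RAS tags of 22.7 (mean) and 22 (median), 4.27 vector tags, a background of 4.45, a nearest peak at 650 kb and 0.298 per Mb.

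Leaving out chromosome 11 left 185 peaks, 18.7 mean RAS tags, 3.37 vector tags, a background of 3.62 and 0.626 per Mb. Local background was 3.91 in tags of the RAS library itself. The share with a fold of at least 8 was 2.87% with 1 tag added to both libraries, that in the outer 10% at each end was 24.5%, and the density without the longest stretch free of peaks was 0.825 per Mb. On the other autosomes these values were 4.35%, 22.5% and 0.901 per Mb.

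Gene-rich minus other autosomes changed sign in 17 of 123 recomputed differences. The 123 include those of median RAS tags, which could not change sign because the difference as reported was 0. That difference became -1 without chromosome 11 and 0.5 with a local fold of at least 5. With a fold of at least 8, the difference became 0.18 for mean RAS tags, 0.099 for vector tags, -0.015 for the focus ratio, 0.068 for local background and -5.77 percentage points for the outer 20% at each end. With the p-value of at most 1e-10 it became -0.012 for the focus ratio and -4.65 points for the outer 20% at each end, with a local fold of at least 5 it became 0.011 for vector tags, and with at least 20 RAS tags -0.0085 for the focus ratio and -238 kb for the nearest peak. Without chromosome 16 the nearest peak was -42.4 kb, and the outer 20% at each end were -0.062 points without chromosome 17 and -0.73 without chromosome 20. Against other autosomes of similar span the focus ratio was -0.001, the nearest peak -25.3 kb and the outer 20% at each end -1.42 points. With 1 tag added the share with a fold of at least 8 was -1.49 points. For mean RAS tags the 5 chromosomes minus other autosomes, a setting chosen after seeing the data, gave -0.93 as reported, 0.11 with a fold of at least 8 and -1.85 with the p-value of at most 1e-10, where the share with at least 24 tags differed by -24.1 points. Leaving out any 1 of the 5 kept the mean difference between -0.96 and -0.88.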

Other observations

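Chromosome 21, which is not among the gene-rich chromosomes by genes per Mb, had a density within their range but some other values outside it. Its median distance to the nearest peak, 1183 kb, lay beyond their range of 273 to 889 kb. Its 19 peaks gave 0.500 per Mb of span (exact 95% Poisson interval 0.301 to 0.780). Its local background at an equal mix of RAS tags was 3.46, the lowest of the 22 autosomes, against 3.68 on chromosome 17. In that mix, 1 peak of chromosome 21 and 2 of chromosome 17 stand for the whole class of 24 to 38 tags. Without weighting, the median of chromosome 21 was 3.56, inside the gene-rich range of 3.55 to 3.92. Mean RAS tags of chromosome 21, 19.5 ± 0.58 (SE over 19 peaks), lay above those of chromosomes 16, 17, 19, 20 and 22, though within 1 SE of chromosome 19. Chromosome 1, with the most genes per Mb of the other autosomes, had 19.2 ± 0.26 RAS tags per peak (n = 192). It had a fold of at least 8 at 30 peaks, 15.6% (exact 95% interval 10.8% to 21.5%). The share of the whole list, 12.2%, lay within that interval.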
